A study of Mus musculus with 16 samples.

Results

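The places where the muscle transcription factor MyoD and the histone mark H3K27ac met, or did not meet, on chromatin were described in LncMyoD knockdown cells. Of the 16 samples of the series, 4 knockdown libraries were used: 2 immunoprecipitated with an antibody to MyoD and 2 with an antibody to H3K27ac. For each antibody, overlapping or touching peaks were joined into regions, and a region was kept when it held a peak of both libraries. This gave 10805 MyoD regions of 18611 found in either library and 29289 H3K27ac regions of 54247. The cells were satellite cells (resident stem cells of muscle) taken from the hindlimb of C57BL/6 mice and grown in F10 medium with horse serum. Per the labels they had been given small interfering RNA against LncMyoD, a long noncoding RNA, for 48 h. Control libraries of the same strain and culture, 2 per antibody, carry the genotype label control and the same treatment text. What the control cells were given, the age of the animals and whether the 2 libraries of a group came from separate animals or cultures are not stated. The p-values below therefore only rank a group difference among reassignments of these libraries, and the spread between libraries may be technical.

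MyoD is a basic helix-loop-helix factor that binds DNA as a dimer with E proteins and is a master regulator of the muscle lineage. Its dimers read the E-box, a short palindromic element written CANNTG, with a preference for particular central letters such as those of CAGCTG. H3K27ac is an acetyl group on lysine of the histone H3 tail that is placed by p300 and CBP and marks active promoters and enhancers. MyoD binds many more places in the genome than it activates, which makes the acetylation state of its sites of interest in satellite cells.

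As examples of promoter sites with both MyoD and H3K27ac, the 250 bases upstream of the annotated gene start are given for 6 genes. Each has a MyoD summit in this stretch and an H3K27ac region over it. Most sites with both lay elsewhere, as 14.6% of MyoD regions overlapping H3K27ac were within 1 kb of an annotated gene end. The summit is the base of a peak with the highest signal. Sequences are those of the RefSeq promoter table on GRCm38 (mm10), read 5′ to 3′ in the direction of the gene, with each CANNTG in capitals. The first 4 are the genes with the highest MyoD fold enrichment of this kind, and Chrna1 and Myog were added after their values were seen.
Rhobtb1, chr10:69208302-69208551, plus strand: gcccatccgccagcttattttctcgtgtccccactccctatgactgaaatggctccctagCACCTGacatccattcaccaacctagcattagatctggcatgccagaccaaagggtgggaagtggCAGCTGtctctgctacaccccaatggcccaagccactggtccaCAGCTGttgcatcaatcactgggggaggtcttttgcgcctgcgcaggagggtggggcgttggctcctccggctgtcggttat
Hes6, chr1:91414039-91414288, minus strand: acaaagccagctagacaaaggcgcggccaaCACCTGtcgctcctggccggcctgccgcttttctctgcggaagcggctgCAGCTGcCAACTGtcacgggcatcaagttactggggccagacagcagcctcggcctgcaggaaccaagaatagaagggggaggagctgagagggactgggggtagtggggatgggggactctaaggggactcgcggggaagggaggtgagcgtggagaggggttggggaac
Tpm2, chr4:43523555-43523804, minus strand: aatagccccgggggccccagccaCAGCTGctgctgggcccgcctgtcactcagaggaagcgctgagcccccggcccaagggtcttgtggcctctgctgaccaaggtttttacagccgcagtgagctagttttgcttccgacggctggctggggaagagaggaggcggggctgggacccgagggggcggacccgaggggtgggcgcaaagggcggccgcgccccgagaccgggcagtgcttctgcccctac
Neil1, chr9:57148306-57148555, minus strand: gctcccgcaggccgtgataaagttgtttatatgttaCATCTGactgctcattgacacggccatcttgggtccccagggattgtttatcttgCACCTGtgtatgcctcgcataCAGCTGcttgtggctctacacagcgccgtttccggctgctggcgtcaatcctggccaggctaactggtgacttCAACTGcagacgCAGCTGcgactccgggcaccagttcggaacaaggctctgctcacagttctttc
Chrna1, chr2:73580339-73580588, minus strand: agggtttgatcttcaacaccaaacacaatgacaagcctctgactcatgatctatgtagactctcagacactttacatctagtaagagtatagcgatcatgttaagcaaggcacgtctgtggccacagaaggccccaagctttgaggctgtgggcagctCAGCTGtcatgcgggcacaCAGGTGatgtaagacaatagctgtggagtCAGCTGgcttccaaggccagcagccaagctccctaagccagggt
Myog, chr1:134289754-134290003, plus strand: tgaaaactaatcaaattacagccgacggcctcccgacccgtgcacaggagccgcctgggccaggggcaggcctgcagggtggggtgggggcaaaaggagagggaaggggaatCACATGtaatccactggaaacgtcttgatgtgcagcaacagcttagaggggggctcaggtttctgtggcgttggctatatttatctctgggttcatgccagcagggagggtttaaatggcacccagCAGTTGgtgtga

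Fold enrichment is the caller's ratio of signal at a summit to local background, as the authors deposited it. It is printed per library, and its size is not compared between libraries. Where no library is named, rankings and quintiles by fold use its mean over the 2 knockdown libraries. At Rhobtb1, a BTB domain gene, MyoD reached 35.4 in knockdown 1 and 33.7 in knockdown 2, with the summit at −125 bases from the gene start and 2 CAGCTG elements in the stretch. At Hes6, a Hes family repressor that promotes myogenic differentiation, the values were 28.0 and 22.3 with the summit at −183 bases. Tpm2, which encodes β-tropomyosin of the thin filament, had 23.2 and 23.9 with 1 E-box in the stretch, of the CAGCTG form. The DNA glycosylase gene Neil1 had 21.7 and 23.1 and held 5 CANNTG elements. Chrna1, the α subunit of the muscle acetylcholine receptor, had 24.3 and 17.2 and lay in an H3K27ac region of 11610 bp. Myog, the gene of the differentiation factor myogenin, was the weakest of the 6, at 5.05 and 10.97. Its stretch held 2 CANNTG elements and 0 of the CAGCTG form.

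Over all 32585 promoter windows (250 bases before to 50 after a gene start), 528 held a MyoD summit, or 1.62%. Windows of different gene starts were counted separately, so overlapping ones can share a summit and an element. Protein-coding genes with a MyoD summit in a window numbered 400, and the intervals below do not allow for such sharing. H3K27ac regions lay over 470 of these 528 windows (89.0%), against 32.1% of all windows. CAGCTG was present in 67.8% of the windows with a MyoD summit (358 windows, 95% exact binomial interval 63.6% to 71.8%). It was present in 12.8% of the 9615 windows with an H3K27ac region and no MyoD region, and in 16.4% of all windows. The related element CAGGTG, searched with its reverse complement, was found in 36.6%, 14.5% and 20.3% of these 3 sets, and any of these elements in 89.4%, 25.1% and 33.2%. Both strands were searched, and each of these elements is also a CANNTG. Median GC content was 61.3% in the MyoD windows and 62.0% in the acetylated windows without MyoD. The nearest such element lay a median of 22 bp from the MyoD summit, and 84.1% of 472 windows had one within 50 bp. Of the 58 windows with a MyoD summit and no H3K27ac region, 44 held CAGCTG (75.9%, interval 62.8% to 86.1%). Of the 470 acetylated ones 66.8% did (62.3% to 71.1%), and these intervals overlap. CAGGTG, with its reverse complement, was in 51.7% (38.2% to 65.0%) against 34.7% (30.4% to 39.2%), which also overlap. Any of these elements was in all 58 (100%, 93.8% to 100%) against 88.1% (84.8% to 90.9%), which do not overlap. No test of these differences was made.

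Per library, the MyoD lists held 16524 and 13146 peaks and the H3K27ac lists 54082 and 39964. The knockdown 2 H3K27ac list stood apart. It covered 37.6 Mb against 57.5 Mb in knockdown 1, and it placed more than 1 peak in 7550 of the shared regions against 1025 in knockdown 1. H3K27ac regions found in 1 knockdown library came from knockdown 1 in 23632 cases and from knockdown 2 in 1326. The lists hold no read counts, so depth is unknown, RNA was not measured, and the depletion of LncMyoD was not checked. Of the 10 satellite cell and myoblast marker genes, 8 carried both MyoD and H3K27ac and 2 (Calcr and Myf5) H3K27ac alone. Of the markers of other cell types, both were carried by 6 of 12 endothelial, 5 of 11 smooth muscle and pericyte, 3 of 12 Schwann and neural, 2 of 12 fibro-adipogenic and 2 of 12 immune genes. Over all genes, 21.1% carried both and 30.3% H3K27ac alone.

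Most MyoD regions lay in acetylated chromatin. Of the 10805 MyoD regions, 8123 overlapped an H3K27ac region of both knockdown libraries, or 75.2% (95% exact binomial interval 74.4% to 76.0%, which like all intervals here covers counting error over regions only). A further 1047 (9.69%) touched H3K27ac peaks of knockdown 1 alone, 7 of knockdown 2 alone and 6 of both libraries in different regions. The remaining 1622 (15.0%) touched no H3K27ac peak in either library. The MyoD summit itself lay inside the acetylated region for 7374 regions (68.2%). Without the knockdown 2 H3K27ac list, 84.8% of MyoD regions were acetylated.

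In the other direction the overlap was smaller. A total of 7606 of 29289 H3K27ac regions held a MyoD region, or 26.0% (25.5% to 26.5%). Another 10.2% held a MyoD peak of 1 library and 63.9% held none. Regions with MyoD were longer than the rest and made up 36.5% of all acetylated bases. Of the acetylated regions with MyoD, 6958 held a single MyoD region, 536 held 2, 89 held 3, 19 held 4, 3 held 5 and 1 held 8. Without the knockdown 2 H3K27ac list, which leaves all regions of knockdown 1 in place, the share with MyoD was 16.9%.

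The stronger a MyoD region, the more often it was acetylated. When the MyoD regions were cut into 5 equal groups (quintiles) by fold enrichment in knockdown 1, the acetylated share was 58.7%, 67.7%, 74.9%, 82.8% and 91.7% from lowest to highest. Ranked by fold in knockdown 2, the shares were 63.8%, 67.8%, 73.7%, 81.3% and 89.3%. MyoD regions with no H3K27ac peak fell from 29.0% in the lowest to 3.79% in the highest group of knockdown 1. The same order held for H3K27ac: 12.4% of the weakest and 44.5% of the strongest quintile by knockdown 1 fold held MyoD, and 13.3% and 47.0% by knockdown 2. These shares describe regions of the same libraries and were not tested.

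**Figure D1:**
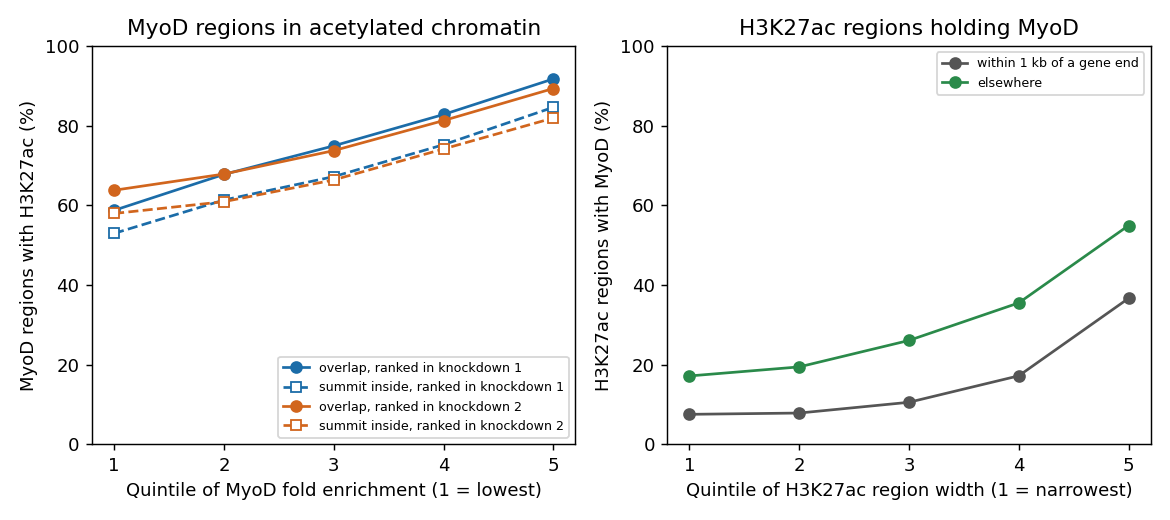
Left, the percentage of MyoD regions that overlap an H3K27ac region (filled) or have their summit inside it (open), by quintile of MyoD fold enrichment in each knockdown library. Right, the percentage of H3K27ac regions holding a MyoD region, by quintile of width, within 1 kb of a gene end and elsewhere. Overlap rises from 58.7% to 91.7% with the knockdown 1 ranking, and the widest H3K27ac regions reach 36.6% near gene ends and 54.9% elsewhere.

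Where H3K27ac lay relative to genes went with whether it held MyoD. H3K27ac regions without any MyoD peak lay within 1 kb of an annotated gene end in 37.7% of cases, against 19.4% of those with MyoD. By width, 15.8% of the narrowest (189 to 741 bp) and 47.9% of the widest quintile (2298 to 31487 bp) of H3K27ac regions held MyoD. Overlap meant at least 1 shared base, so a longer region had more room for MyoD. The part of length in these shares was not tested. Ranked by width separately near gene ends and elsewhere, the shares were 7.51% of the narrowest and 36.6% of the widest near gene ends, against 17.1% and 54.9% elsewhere. Median width was 1874 bp with and 1215 bp without MyoD, and median fold enrichment was 10.2 and 8.54 in knockdown 1 and 2 with MyoD against 6.91 and 5.74 without. H3K27ac regions with 3 or more MyoD regions had a median width of 7823.5 bp and median folds of 19.9 and 17.7.

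MyoD regions without acetylation were weaker and farther from genes. Those that touched no H3K27ac peak had a median width of 368 bp and median folds of 6.53 and 6.27 in knockdown 1 and 2, against 444 bp, 9.21 and 7.84 for the acetylated ones. They lay near a gene end in 7.77% of cases, against 14.6%, and more than 50 kb from any gene in 20.96%, against 13.0%. From their summits, the nearest edge of an H3K27ac region found in either library was a median of 15.5 kb away (quartiles 4.24 and 47.5 kb). It was within 1 kb for 14.2% and more than 50 kb away for 23.9%.

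The strongest co-occupied MyoD regions were in or near genes of several kinds. The top region (chromosome 1, 170655290 to 170656258) lay in Olfml2b, which encodes an olfactomedin-domain matrix protein. Its MyoD fold was 49.4 in knockdown 1 and 43.9 in knockdown 2, inside an H3K27ac region of 5916 bp with folds of 19.1 and 16.4. The second (chromosome 11, 69459459 to 69460630) lay in Dnah2, an axonemal dynein gene, with 47.2 and 45.8. The third (chromosome 1, 183309525 to 183310176) lay in Aida, which encodes an axin-interacting protein, with 40.2 and 44.7. The ranking was by the mean MyoD fold of the same knockdown libraries. The fourth (chromosome 8, 122850534 to 122851170) lay in Cdh15, the gene of M-cadherin, an adhesion protein of satellite cells and myoblasts, with 40.2 and 41.1, and its H3K27ac region of 6325 bp held 4 MyoD regions. A region with no gene within 50 kb (chromosome 13, 37691886 to 37692563) had 41.6 and 34.9.

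Others of the top 10 lay in or near a chromatin gene, a ubiquitin ligase gene and genes of transcriptional regulators. Jade1, which encodes a subunit of a histone acetyltransferase complex (chromosome 3, 41594906 to 41595575), had MyoD folds of 40.2 and 32.5 in a weak H3K27ac region of 961 bp (folds 4.18 and 4.46). With only peaks of −log10 q at least 5, the Jade1 region was no longer co-occupied. The region in Sh3rf3, a ubiquitin ligase gene (chromosome 10, 58924572 to 58925974), had 25.5 and 47.8. Purb, encoding a single-strand DNA-binding repressor, had its MyoD region 4.88 kb from the gene (chromosome 11, 6480953 to 6482271; 41.9 and 30.6). Mamstr, a coactivator of MEF2 factors (chromosome 7, 45639406 to 45640013), had 40.5 and 31.7 near a gene end.

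Strong MyoD binding without acetylation was also seen. The strongest region with no H3K27ac peak in either library (chromosome 3, 58024499 to 58025367) had MyoD folds of 41.3 and 32.9 and no gene within 50 kb, and its nearest H3K27ac summit was 177501 bp away. The next lay 8.37 kb from Irf5, an interferon regulatory factor gene (chromosome 6, 29517093 to 29517757), with 26.5 and 26.6. The region 21.3 kb from Mprip, a gene of a myosin phosphatase partner (chromosome 11, 59640139 to 59641143), had 20.96 and 31.7, and an H3K27ac summit was 1232 bp away. The fourth (chromosome 17, 4626092 to 4626644; no gene within 50 kb) had 36.8 and 10.5. The fifth lay 39.7 kb from Klhl25, a cullin adaptor gene (chromosome 7, 75913877 to 75914509), with 26.2 and 19.99.

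The widest acetylated domains without MyoD had strong H3K27ac. The widest (chromosome 15, 85652283 to 85682715; 30433 bp) lay more than 50 kb from the genes used, with folds of 22.6 and 19.7. A domain of 29386 bp spanned Hoxc10 and Hoxc9, homeobox genes of limb and trunk position (chromosome 15, 102958159 to 102987544), with 15.8 and 15.2. The others lay in Pde4b, a cyclic AMP phosphodiesterase gene (17886 bp), Nfib, a nuclear factor I gene (17018 bp), and Pax7, the defining transcription factor of satellite cells (16349 bp; folds 13.1 and 12.9). Pax7 had 3 MyoD regions elsewhere, each in its own smaller acetylated region of 693, 1080 and 3134 bp. The absence of MyoD peaks in both libraries was the rule by which these 5 domains were picked.

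At the other end, a few acetylated domains held many MyoD regions. A domain of 23442 bp over Iffo1, Gapdh and Ncapd2 (chromosome 6, 125145254 to 125168695) held 8, with H3K27ac folds of 27.8 and 25.9. The MyoD region assigned to Gapdh, the glycolytic gene often used as a reference, was a weak one of these, at 4.40 and 5.49. Domains in Msi2, a Musashi RNA-binding protein gene (18542 bp), over Myl12a, Myl12b and the M-band gene Myom1 (14234 bp), and in Cd82, a tetraspanin gene (12483 bp), held 5 each. A domain of 23083 bp in Cxxc5, a CXXC zinc finger gene, held 4.

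Within acetylated regions MyoD summits gathered at the middle. Of 7374 MyoD summits inside an H3K27ac region, 4407 (59.8%, interval 58.6% to 60.9%) were in the middle of 3 equal parts of the region. In 10 equal parts from the left to the right edge, the shares were 3.15%, 4.45%, 8.44%, 14.4%, 19.96%, 19.6%, 14.0%, 8.46%, 4.48% and 3.12%, which is nearly symmetric. The middle part held 65.0% of summits in regions with 1 MyoD region and 37.4% in regions with several. Near gene ends the share was 48.6%, against 61.7% elsewhere (intervals 45.5% to 51.6% and 60.5% to 62.9%). By MyoD fold it was 54.7% in the lowest and 65.1% in the highest quintile of these summits.

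**Figure D2:**
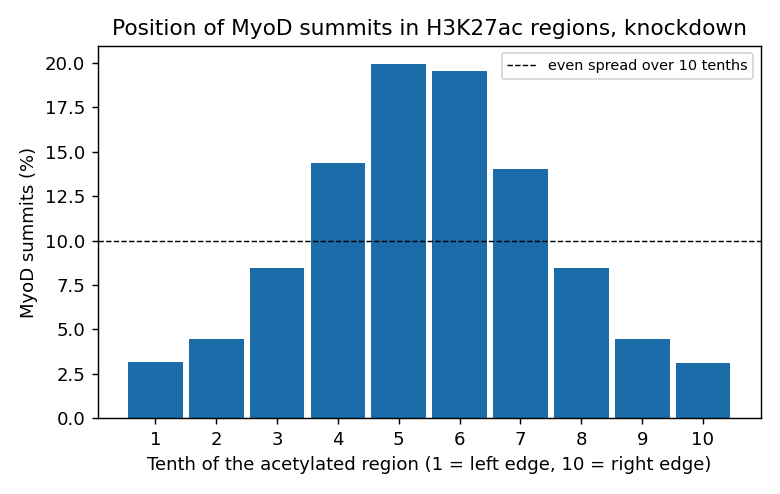
Percentage of the 7374 MyoD summits in each of 10 equal parts of the H3K27ac region that holds them, left to right in chromosome order, with a dashed line at an even spread. The 2 central parts hold 19.96% and 19.6% and the outer ones 3.15% and 3.12%.

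Although central, most MyoD summits were offset from the H3K27ac summits. The nearest H3K27ac summit of the knockdown 1 list was a median of 306 bp away, and that of the knockdown 2 list 311 bp. Within 100 bp lay 5.15% and 4.76% of the summits, while 58.7% and 62.0% were 200 to 500 bp away. With the H3K27ac summits of both lists pooled, the median was 260 bp (quartiles 184 and 357 bp). Both libraries placed the H3K27ac summit about as far from MyoD.

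Acetylation around MyoD summits showed a central dip in the 2 knockdown libraries. In knockdown 1, 71.7% of the 10805 MyoD summits lay in an H3K27ac peak, rising to 77.9% of positions 250 bp away and falling to 9.17% at 10000 bp. In knockdown 2 the shares were 50.4% at the summit, 63.2% at 300 bp and 6.50% at 10000 bp. The dip was therefore 6.28 percentage points in knockdown 1 and 12.9 in knockdown 2. Around the top quintile of MyoD regions it was 6.43 and 16.8 points, and around the lowest 4.18 and 7.88. A dip was also present in the controls, where coverage rose from 60.6% to 68.4% and from 64.4% to 70.4%.

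**Figure D3:**
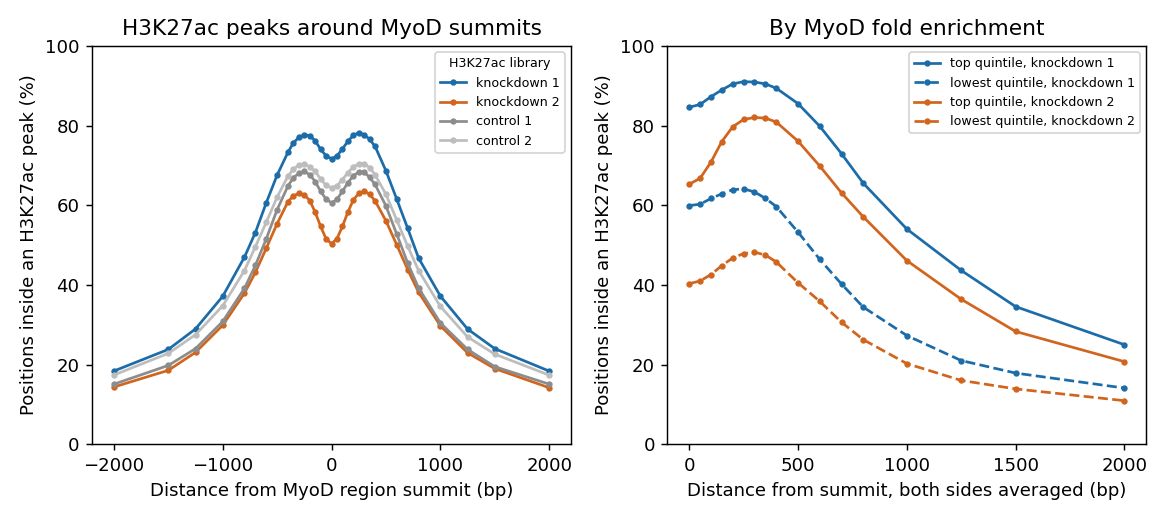
Percentage of positions inside an H3K27ac peak against distance in bp from the MyoD region summit, for the 4 H3K27ac libraries with the MyoD regions of the same group (left), and for the highest and lowest quintile of knockdown MyoD regions (right). Each curve has its highest value 250 or 300 bp from the summit, and knockdown 2 has the deepest dip, 12.9 percentage points over all MyoD regions.

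Some MyoD summits lay in a short gap between H3K27ac peaks. A summit was counted so when it was outside peaks but had a peak edge within 500 bp on either side. In knockdown 1 this held for 723 MyoD regions (6.69%), with a median gap of 204 bp, and in knockdown 2 for 1302 (12.1%), with a median of 231 bp. The knockdown 2 list also split H3K27ac regions into several peaks more often, as given above, and the part of this splitting in the dip was not tested.

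Regions were then assigned to genes: to a gene body they overlapped, or else to the nearest one within 50 kb. Of 21627 genes, 4554 (21.1%) had MyoD and H3K27ac regions, 599 (2.77%) MyoD alone, 6546 (30.3%) H3K27ac alone and 9928 (45.9%) neither. Of the 4554 genes with both, 4009 had at least 1 co-occupied region and 545 had the marks only at separate places. Genes with both were longer than others, with a median of 43.1 kb against 17.3 kb over all genes, and had a median of 3 H3K27ac regions against 1 in genes with H3K27ac alone. Their highest H3K27ac folds had medians of 12.9 and 10.6 in knockdown 1 and 2, against 9.82 and 7.67. Their highest MyoD folds had medians of 9.95 and 8.62, against 7.37 and 6.66 in genes with MyoD alone. Of the genes with both, 18 had 10 or more MyoD regions, among them Gse1 with 23 and Msi2 with 18, named here after their values were seen.

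The MyoD-alone class depended on which H3K27ac regions were counted. Of its 599 genes, 297 had an H3K27ac region in 1 library, and 58 had a MyoD region that touched an H3K27ac region assigned to a neighbouring gene. Without the knockdown 2 H3K27ac list 300 genes had MyoD alone, and without the knockdown 2 MyoD list 1079 did. The 5 with the highest MyoD fold were Bloc1s1, a lysosome-related organelle complex gene (39.8 and 28.2), Rimbp3, a sperm manchette gene (29.1 and 25.9, with 3 MyoD regions), Irf5 (26.5 and 26.6), the phospholipid flippase gene Atp8b5 (21.4 and 23.5) and Rnf121, a RING finger gene (20.998 and 20.4). For Bloc1s1 and Rnf121 the MyoD region did touch an acetylated region, which was assigned to another gene. The MyoD regions of the other 3 touched no H3K27ac region of both libraries.

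Of the 22 myogenic regulator genes, 18 had both MyoD and H3K27ac, 4 H3K27ac alone and 0 MyoD alone, against 21.1%, 30.3% and 2.77% of all genes. Their median length was 22.1 kb, and they had a median of 2 MyoD and 3 H3K27ac regions, against 0 and 1 over all genes. Of their 44 MyoD regions 37 were acetylated (84.1%), against 76.7% of the regions assigned to any gene. The highest MyoD folds after Mamstr were at Mef2a, a MADS-box partner of MyoD, with 34.6 in knockdown 1 and 34.9 in knockdown 2, and at Rbm24, which encodes a muscle splicing factor, with 33.2 and 25.5. The E protein genes Tcf12 (31.3 and 22.7) and Tcf4 (32.0 and 21.6), whose products pair with MyoD, followed, with Celf2, a splicing factor gene (28.7 and 21.9). The E protein gene Tcf3 had H3K27ac alone, at 16.6 and 11.2.

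Among the 4 myogenic basic helix-loop-helix genes, Myod1 and Myog had both marks, and Myf5 and Myf6 had H3K27ac alone. Myod1 had 6 MyoD regions, of which 5 were acetylated, with a highest MyoD fold of 19.9 and 12.1. Of these, 3 shared an H3K27ac region of 6636 bp outside the gene, at 15.3%, 35.2% and 82.0% of its length, and the one at the gene (6.53 and 6.27) lay in a region of 6096 bp. The sixth (chromosome 7, 46365771 to 46366280; 12.2 and 10.0) touched H3K27ac peaks of knockdown 1 alone. Myog had 1 MyoD region, near its gene end, and its H3K27ac folds were 11.3 and 8.03. Myf5 and Myf6, the neighbouring determination genes, had highest H3K27ac folds of 13.5 and 11.9, and 10.7 and 12.4.

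Other regulators differed in how their MyoD regions were marked. Eya2, a coactivator of homeodomain proteins, had 4 MyoD regions (highest 14.0 and 13.7) and 0 of them acetylated in both libraries, with 1 H3K27ac region of 0.522 kb elsewhere. Its paralogues Eya1 (18.6 and 10.6) and Eya4 (9.58 and 5.09) had 2 of 2 and 3 of 3 acetylated. Six4, a homeobox gene, had H3K27ac alone (5.64 and 6.50). Mef2d had 4 MyoD regions, all acetylated and 3 of them in 1 region of 13903 bp, while of the 2 at Mef2c 1 was acetylated. The homeobox gene Pitx3 (9.56 and 13.9), the muscle methyltransferase gene Smyd1 (19.2 and 14.9) and the follistatin gene Fst (6.999 and 9.01) had both marks.

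Satellite cell and quiescence genes were the list with the highest share of both marks, 22 of 25 (88.0%, against 21.1% of all genes). Their median length was 33.8 kb, against 17.3 kb over all genes. After Cdh15, the highest MyoD folds were at Megf10, a receptor of satellite cell proliferation (34.5 and 26.0, 5 MyoD regions), and Met, the receptor of hepatocyte growth factor (32.4 and 27.8, 5 regions). The MyoD regions of both genes were all acetylated. Calcr, Cd34 and Hey1 had H3K27ac alone. The list's 67 MyoD regions were acetylated in 60 cases (89.6%, against 76.7% of the regions assigned to any gene).

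Genes of the differentiated muscle fibre also carried both marks in these cultured cells. Of 40 sarcomere genes 29 had both, 7 H3K27ac alone and 4 (Myh4, Myoz1, Tcap and Unc45b) neither. Over all genes these shares were 21.1%, 30.3% and 45.9%, and the list's 29 genes are 72.5% of it, at a median length of 23.8 kb. The highest MyoD folds were at Myom1 (27.3 and 23.5), Tpm2 (23.2 and 23.9) and Actn3, fast-fibre α-actinin (25.1 and 18.6). When only regions overlapping a gene body were counted, 19 of the 40 had both. Of 22 excitation-contraction coupling genes 15 had both (68.2%, at a median length of 39.5 kb), led by the calcium channel genes Cacna1s (18.9 and 16.1) and Cacng1 (16.8 and 16.5) and by Stac3, which couples the channel to release (16.2 and 16.5). Cacnb1 and the potassium channel gene Kcnj2 had MyoD alone. The MyoD region of Cacnb1 (13.3 and 13.7) lay in an H3K27ac region of 2935 bp assigned to another gene, whereas the 2 of Kcnj2 (highest 12.5 and 9.01) touched no H3K27ac peak, and the nearest H3K27ac summit was 158567 bp from one and 164813 bp from the other.

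Of 23 fusion and neuromuscular junction genes, 19 had both, 1 MyoD alone, 1 H3K27ac alone (Agrn) and 2 neither. Over all genes these shares were 21.1%, 2.77%, 30.3% and 45.9%. The median gene length was 31.3 kb in the list and 17.3 kb over all genes. Beside Cdh15, the highest folds were at Rapsn, the receptor-clustering gene rapsyn (22.3 and 22.3), and Chrna1. Chrnb1, another receptor subunit gene, had MyoD alone (14.0 and 10.97), but this region lay in an H3K27ac region of 8435 bp assigned to another gene. At Mymk, the gene of the fusion protein myomaker, the strongest MyoD summit (14.4 and 11.8) lay at 0.886% and a second at 99.9% of the length of an acetylated region of 2370 bp, at its edges.

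Among regulators that limit or pattern differentiation, 14 of 18 Id and repressor genes had both marks, 1 H3K27ac alone (Sim2) and 3 (Tcf21, Twist1 and Twist2) neither. Over all genes these shares were 21.1%, 30.3% and 45.9%. The median gene length was 4.77 kb in the list and 17.3 kb over all genes. After Hes6, the highest were Id3, an inhibitor of helix-loop-helix dimers (22.5 and 16.1), and Zeb1, an E-box-binding repressor (16.2 and 18.8). With overlapped gene bodies only, 8 of the 18 had both. Of the 25 AP-1, Tead and Runx genes, 18 had both and 7 H3K27ac alone, against 21.1% and 30.3% of all genes. Their median length was 8.24 kb. Tead1, a Hippo pathway effector, had 9 MyoD regions, all acetylated (highest 26.8 and 37.2), Runx2 had 30.9 and 23.9 and Tead4 26.5 and 21.9.

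In the other functional lists, both marks were on 15 of 30 matrix and TGF-β genes (Lama5 29.8 and 27.04, Loxl2 17.3 and 14.1, Col4a1 16.2 and 14.5) and on 9 of 19 genes of the IMP and IGF axis (Igf2r 23.2 and 23.1, Hmga2 24.3 and 14.5, Igf1r 20.3 and 15.3). Without the knockdown 2 MyoD list, or with presence in either library, 14 of these 19 had both. With presence in either library, 23 of the 30 matrix and TGF-β genes had both. Of all genes, 21.1% had both. Median gene length was 68.4 kb in the matrix and TGF-β list and 58.3 kb in the IMP and IGF list, against 17.3 kb over all genes. Lama5 encodes a laminin chain, Loxl2 a lysyl oxidase, Col4a1 a basement membrane collagen and Hmga2 a chromatin protein, and Igf2r and Igf1r encode receptors. Of 25 acetylation and cofactor genes 11 had both and 13 H3K27ac alone, against 21.1% and 30.3% of all genes. Their median length was 51.8 kb. MyoD folds were high at the remodelling subunit gene Smarcd3 (28.4 and 26.3) and the acetyltransferase gene Kat2b (21.4 and 17.2), while the acetyltransferase gene Ep300 had H3K27ac alone and Crebbp both. Of 30 cell cycle genes 11 had both, led by E2f2 (20.6 and 15.7), Ccnd3 (16.8 and 18.9) and Ccne1 (15.8 and 12.9). A further 16 had H3K27ac alone, among them Cdk1, Pcna and Top2a. Over all genes these shares were 21.1% and 30.3%, and the median gene length in the list was 15.0 kb.

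Housekeeping genes had H3K27ac alone in 14 of 20 cases, against 30.3% of all genes, and both in 5, near the 21.1% of all genes. High MyoD folds among them were at Actb (10.7 and 10.6) and Eef1a1 (9.58 and 6.66), and Gapdh had MyoD alone because its acetylated domain was assigned to Iffo1. Markers of other cell types that a muscle culture could hold were counted in the same way, against the same 21.1% of all genes with both. Both marks were on 6 of 12 endothelial genes (Tek 16.8 and 19.99, Vwf 20.3 and 14.5, Cldn5 14.0 and 14.5) and 5 of 11 smooth muscle and pericyte genes (Notch3 13.6 and 14.5, Acta2 15.8 and 12.5, Rgs5 13.3 and 7.05). They were on 3 of 12 Schwann and neural genes (Rbfox3 20.3 and 16.9, Sox10 12.5 and 7.85, Pmp22 7.74 and 7.84), 2 of 12 fibro-adipogenic genes (Gsn 9.95 and 12.1, Dpt 7.74 and 5.09) and 2 of 12 immune genes (Cd3e 8.47 and 6.66, Spi1 6.999 and 6.66). MyoD alone was on Egfl7 (6.26 and 6.27) and Kdr (5.53 and 6.66), Ngfr (4.81 and 7.45) and Itgam (12.2 and 10.97). Without the knockdown 2 MyoD list 5 Schwann and neural and 5 fibro-adipogenic genes had both. Neither mark was on 9 immune, 6 fibro-adipogenic, 4 Schwann and neural, 4 smooth muscle and pericyte and 3 endothelial genes, against 45.9% of all genes. Pecam1 and Cdh5 were among the endothelial genes with both. Notch3 is also in the satellite cell and quiescence list and was counted with both marks there too. Whether other cell types contributed to these H3K27ac peaks was not tested.

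**Figure D4:**
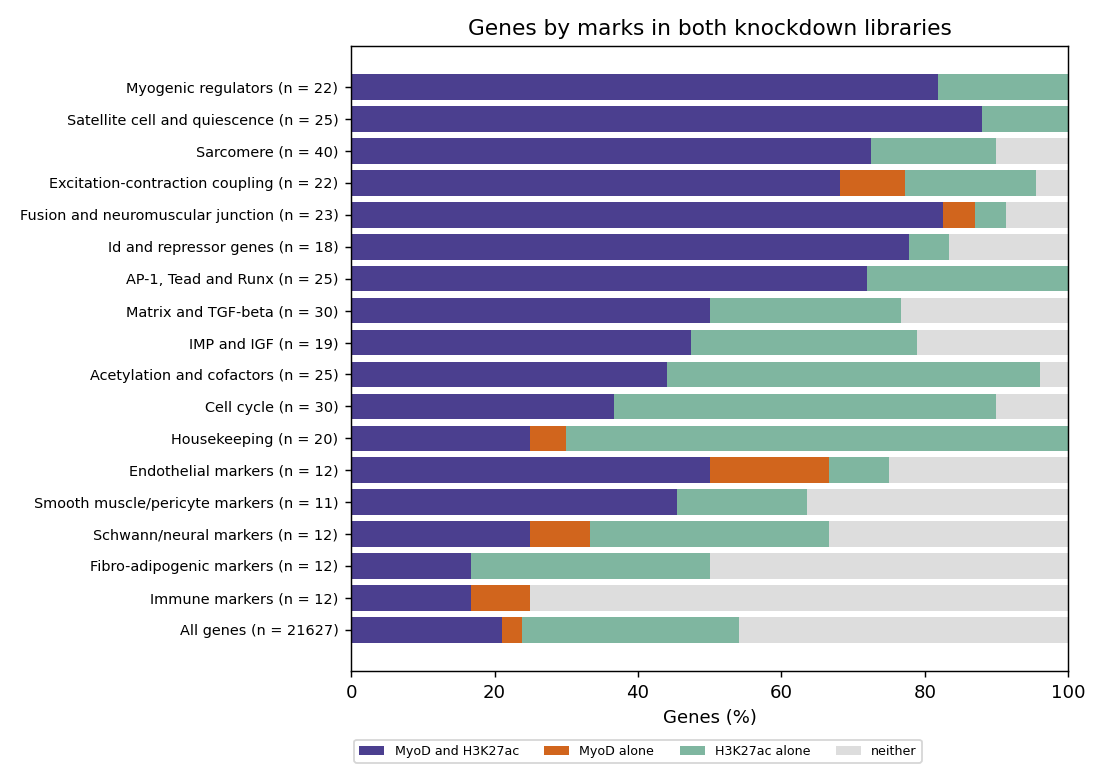
Percentage of genes in each list with MyoD and H3K27ac regions, MyoD alone, H3K27ac alone or neither, in the knockdown libraries, with all 21627 genes at the bottom. Both marks reach 88.0% in the satellite cell list and 81.8% in the myogenic regulators, against 36.7% in the cell cycle list and 21.1% in all genes.

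Mir206 and Mir133b are muscle microRNAs transcribed from 1 locus and were named after their values were seen. Of the muscle microRNA genes looked up (Mir206, Mir133b, Mir208b, Mir499, Mir1a-1, Mir133a-2 and Mir486), the first 4 matched the RefSeq table. The nearest MyoD regions were 21.5 kb from Mir208b and 16.1 kb from Mir499, and both were acetylated. The Mir206 hairpin (chromosome 1, 20679010 to 20679082) lay inside an H3K27ac region (20666166 to 20680202) with folds of 19.3 and 18.5. A MyoD region in the same acetylated region (20677844 to 20678410; 17.3 and 19.6) was 0.599 kb from the Mir206 hairpin and 4.36 kb from that of Mir133b. The mature strands from RefSeq are given with the seed, bases 2 to 8, in capitals. The seeds differ between the 2 microRNAs.
miR-206-3p: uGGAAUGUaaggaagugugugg
miR-133b-3p: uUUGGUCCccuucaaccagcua

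To ask whether knockdown cells differed, similar measures were taken from the peaks of single libraries in both groups. Of MyoD summits, 64.5% and 46.3% lay in an H3K27ac peak of the same replicate number in knockdown 1 and 2, against 55.7% and 58.5% in control 1 and 2. The controls lay between the knockdown values. The difference was −1.68 percentage points between means of 55.4% ± 12.9 and 57.1% ± 2.02 (SD, n = 2; two-sided exact permutation p = 1, adjusted p = 1). Of H3K27ac peaks, 17.3% and 13.5% held a MyoD summit in the knockdown and 18.7% and 17.1% in the controls, which overlap (difference −2.49 points, exact permutation p = 0.667, adjusted p = 1). The groups did not overlap with only peaks of −log10 q at least 5 (difference −3.96 points, exact permutation p = 0.333) or with the H3K27ac library of the other number (−2.69 points, exact permutation p = 0.333). Distances were taken from MyoD summits inside an H3K27ac peak to the summit of that peak. Their medians were 298 and 321.5 bp against 302 and 304 bp (difference 6.75 bp, exact permutation p = 1, adjusted p = 1). With 2 libraries a group the smallest p this test allows is 0.333, and p-values were adjusted over the 3 tests by the Benjamini-Hochberg method.

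For 2 of the 3 measures the knockdown values followed the H3K27ac library. MyoD knockdown 1 summits lay in peaks of H3K27ac knockdown 1 in 64.5% and of knockdown 2 in 44.8% of cases, and MyoD knockdown 2 summits in 66.2% and 46.3%. Median distances were 298 bp with H3K27ac knockdown 1 for either MyoD library, and 322 and 321.5 bp with H3K27ac knockdown 2. The share of H3K27ac peaks with a MyoD summit followed the MyoD library instead, at 17.3% and 16.2% with MyoD knockdown 1 and 14.4% and 13.5% with MyoD knockdown 2. Without knockdown replicate 2, the difference in MyoD summits turned to 7.45 points and that in distance to −5 bp. For regions of both libraries the controls had 13755 MyoD and 34072 H3K27ac regions, 76.2% of MyoD regions acetylated, 29.1% of H3K27ac regions with MyoD, 58.4% of summits in the middle part and a median distance of 253 bp. The knockdown values were 75.2%, 26.0%, 59.8% and 260 bp, with no test of these pooled values.

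**Figure D5:**
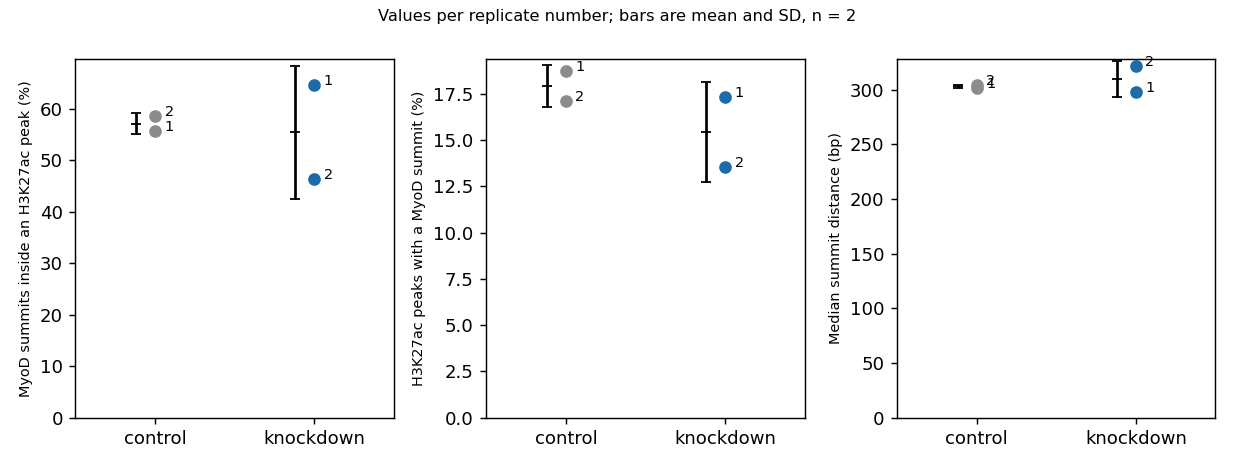
Values per replicate number (points) with the mean and SD (bars, n = 2). Left to right are the percentage of MyoD summits in an H3K27ac peak, the percentage of H3K27ac peaks with a MyoD summit, and a median distance in bp. The distance runs from MyoD summits inside an H3K27ac peak to the summit of that peak. The knockdown points surround the control points in the left and right panels, at 64.5% and 46.3%, and at 298 and 321.5 bp.

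Gene classes in control and knockdown cells were set side by side. In the controls 5427 genes had both marks, 658 MyoD alone and 6433 H3K27ac alone. Of the 4554 genes with both in the knockdown, 4327 also had both in the controls and 184 had H3K27ac alone there. Of the 599 with MyoD alone in the knockdown, 365 had MyoD alone and 161 had both in the controls. A further 861 genes had H3K27ac alone in the knockdown and both in the controls. The knockdown 2 lists were the shortest for each antibody, and their part in these gene numbers was not tested.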

How the data were processed

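ChIP-seq peak lists of 8 libraries were used: 4 from LncMyoD knockdown cells and 4 from control cells. The 8 input samples were not analysed here. Per the submitters' processing notes, the tools were MACS2 2.1.1, Bowtie2 2.3.2, SAMtools 1.3, bedtools 2.26.0 and Picard 2.9.2, on mm10. The sources used here do not give their options or the control used for calling. Peaks were called per library, with 1 deposited list each. The deposited fold enrichment of a peak is a ratio of signal to local background, and the deposited p and q are on the −log10 scale. The lowest −log10 q in a list was 1.30 to 1.33, and the deposited score was 10 times −log10 q in whole numbers for 100% of peaks. All of these are the authors' values and were used only to describe, rank and filter peaks.

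Peaks on chromosomes 1 to 19 and X were merged at a gap of 0 bp, and a region needed a peak of both libraries. Overlap meant at least 1 shared base. The region summit was the mean of the summits of the strongest peak of each library. Regions went to the overlapped gene of the RefSeq GRCm38.p6 table (of several, the one with the nearest end, ties by alphabet), or to the nearest within 50 kb. This table has no strand or exons, so either gene end counts as a gene end, with a limit of 1 kb. All 355 listed genes matched by symbol in 17 lists (12 functional, 5 of markers of other cell types). The satellite cell and myoblast markers formed a separate check. Of the genes used, 17246 had a promoter window in the RefSeq promoter table. Knockdown and control libraries were compared by two-sided exact permutation tests over 6 assignments, with Benjamini-Hochberg adjustment. Shares have 95% exact (Clopper-Pearson) intervals, for counting error only. Numerical work used Python 3.11.15, numpy 2.4.6, pandas 2.3.3, scipy 1.17.1 and matplotlib 3.10.9, and overlap, position and gene assignment were tested on simulated data.

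The regions, genes and lists were chosen with earlier results of these data known. Named were the 10 strongest co-occupied MyoD regions, the 5 strongest without H3K27ac, the 5 widest H3K27ac regions without MyoD, the 5 acetylated regions with most MyoD regions, and the 5 strongest genes with MyoD alone. Also named were all myogenic regulators, the 3 genes with the highest MyoD fold of every other list with any MyoD-alone gene, and 4 promoters off chromosome 18. The fibro-adipogenic list had 2 genes with MyoD. Some genes that this rule names are not reported here. Other genes named were chosen after their values were seen. Alternatives were stricter peaks (−log10 q of at least 5), presence in either library, a 500 bp merge gap, equal peak numbers, other overlap and gene rules, each library left out and a replicate block. The alternatives for single lists, for the strongest quintile and for CAGCTG were chosen after seeing the data.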

Additional observations from a re-analysis of the deposited data

How the results depend on the processing

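The share of MyoD regions with H3K27ac was 76.2% from replicate 1 alone and 63.4% from replicate 2 alone, a wide SD of 9.07 points. Within 1 SD of this replicate spread it stayed except without H3K27ac knockdown 2 (84.8%). It ranged from 66.7% to 84.8% with a library left out and was 69.7% with stricter peaks. The share of H3K27ac regions with MyoD was 24.0% with presence in either library, 27.7% with a 500 bp merge gap, 25.04% with equal peak numbers, 22.6% with at least 50% of the MyoD region inside, and 16.9% to 33.8% with a library left out. The middle part held 56.0% of summits with presence in either library and 53.2% to 58.9% with a library left out. The median summit distance was then 256 to 324 bp, and 300 to 1079 genes had MyoD alone. For the 3 comparisons with controls, leaving out a replicate gave −10.8 to 7.45 percentage points for MyoD summits, −4.40 to −0.574 for H3K27ac peaks and −5 to 18.5 bp for distance. The sign turned without knockdown replicate 2, to 7.45 points and −5 bp; the knockdown is then 1 library, only the controls give a spread, and 0.333 is the smallest exact permutation p. With the replicate number as a block the differences were −1.68, −2.49 and 6.75, with exact permutation p of 1, 0.5 and 1, and 0.5 is the smallest the block allows. Same-numbered libraries were correlated at 0.104 for MyoD and 0.155 for H3K27ac, but with only 2 pairs the numbers were not taken to pair the libraries. With equal peak numbers the difference in MyoD summits was −4.64 points and that in H3K27ac peaks −1.44. Of the values under alternatives, 75 stayed, 15 moved and 2 changed sign. To stay meant within the replicate spread, or within 1.5 times for gene counts. For the 3 comparisons it meant only the same side of 0, so their size could still change, and no p-value entered. Of the counts per gene list, 173 stayed within 1.5 times and 14 did not, among them sarcomere genes with overlapped gene bodies only (19). The CAGCTG share of promoter windows with a MyoD summit moved from 67.8% to 63.4% with presence in either library and 63.6% without MyoD knockdown 2. The cause of these changes was not tested. Depth is unknown, so a missing peak may be a peak below the calling threshold.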
